A study of Mus musculus with 6 samples.

Results

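The genes described here are the 6 mouse peroxiredoxins (Prdx1 to Prdx6), thioredoxin (Txn1), its reductase (Txnrd1), its binding inhibitor (Txnip) and the phospholipid hydroperoxidase Gpx4. They were chosen by gene symbol, 10 members among the 26771 genes listed in at least 1 library. Of the 10 members, 9 had a row in all 6 tables and all 9 passed the filter on low values. Txnrd1 had no row in any table. By the rule for choosing members it counts as 0. Its estimate may have failed, so no level was read from it, and only its promoter windows were searched.

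The study measured messenger RNA in splenic γδT17 cells (interleukin-17A producers of the γδ lineage) from C57BL/6 TCRβ-/- mice. Both groups carry the TCRβ deletion, which leaves the mice without αβ T cells. The Initial group (3 libraries, mice A, B and C) was sorted from splenocytes with no culture, and the Induced group (3 libraries from mice with the same letters) was taken on day 8 of a culture with IL-1β and IL-23 and purified with a magnetic pan T cell kit. Age and sex of the mice were not stated. Culture, cytokines, time and the way the cells were purified all differ between the groups and cannot be told apart. No source used here says how the Initial cells were sorted.

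Thioredoxin is a small disulfide reductase that donates electrons from NADPH, through thioredoxin reductase, to ribonucleotide reductase, methionine sulfoxide reductases and the peroxiredoxins. The peroxiredoxins use a reactive cysteine to reduce hydrogen peroxide and lipid hydroperoxides, and sulfiredoxin repairs the ones that become overoxidised. Txnip is an α-arrestin that binds reduced thioredoxin, lowers glucose uptake, and is known as a glucose-responsive gene of quiescent lymphocytes.

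Values are FPKM, fragments scaled to transcript length and to library size, so levels are per length. Differences were tested with limma on log2(FPKM + 1) over 11265 genes with Benjamini-Hochberg adjustment, and a gene was called at an adjusted p under 0.05. Fold changes are on that log2 scale, which understates the change of low genes. Means are given ± SD over 3 libraries. By this test 70.4% of all genes were called, 37.3% as higher and 33.1% as lower in Induced, and 75.4% had groups that did not overlap. Among the 9 members, 4 were called higher, 2 were called lower and 3 did not pass, and 6 had groups that did not overlap, so the members were called at a share close to the background. Their median log2 difference was 0.08, against 0.03 over all genes tested. The balance of calls depended on the scaling. All genes gave 4199 higher and 3732 lower with the deposited FPKM, and 5420 higher and 2637 lower of 11250 when each library was scaled to its CD3 chain and Trdc levels (the T cell receptor genes), which moved the median of all genes to 0.24. Under that scaling 6 members were higher, with Prdx5 (0.23, adjusted p = 0.0223) and Gpx4 (0.30, adjusted p = 0.0355) added and below or near that median, and the same 2 were lower.

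Estimated depth was 20400000 to 23600000 fragments per Initial library and 22000000 to 25400000 per Induced library. The fewest estimated fragments behind a member value were 110, for Prdx4 in Initial, with an estimated counting error of 9.76%. For every other member the estimate was 760 or more, with an estimated error of 3.62% or less, which covers counting only. These estimates took the longest annotated transcript of each gene, so the true counts may be fewer and the errors larger. Trdc, the δ chain constant gene that marks γδ T cells, was at 327 ± 7.24 in Initial and 335 ± 31.7 in Induced. Il17a was at a mean of 10.4 and 15.9. Summed FPKM of 7 T cell markers ran from 2601 to 2802 in Initial and from 1819 to 1930 in Induced. Lck (920 and 289 in means), Cd3d and Cd3e were called lower, and Cd3g, Cd247, Trdc and Zap70 did not pass. Markers of red cells, macrophages and B cells were higher in Initial. Summed FPKM of 9 red cell markers was 1221 to 1747 in Initial and 1.17 to 1.64 in Induced, where Alas2, Car1 and Klf1 were listed at 0. For 10 macrophage and monocyte markers it was 567 to 1089 against 3.84 to 5.79, and 10 against 2 of them were above 1 FPKM. For 8 B cell markers it was 415 to 476 against 25.5 to 49.5, for 6 natural killer cell markers 127 to 148 against 20.4 to 93.6, and for 6 dendritic cell markers 12.4 to 15.7 against 3.31 to 8.41. Induced C stood apart from Induced A and B on natural killer genes, with Klre1 at 16.1 against 3.69 and 1.28 FPKM and Eomes at 46.7 against 16.3 and 7.16. Without Induced C, 4 members were still called higher and 2 lower. The 8 markers of proliferating cells were the other way round, with a sum of 166 to 194 in Initial and 1129 to 1217 in Induced. In these bulk libraries, fewer cells of a type and less RNA per cell cannot be told apart, and the part of other cells in the changes below was not tested except where a value is given.

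**Figure D1:**
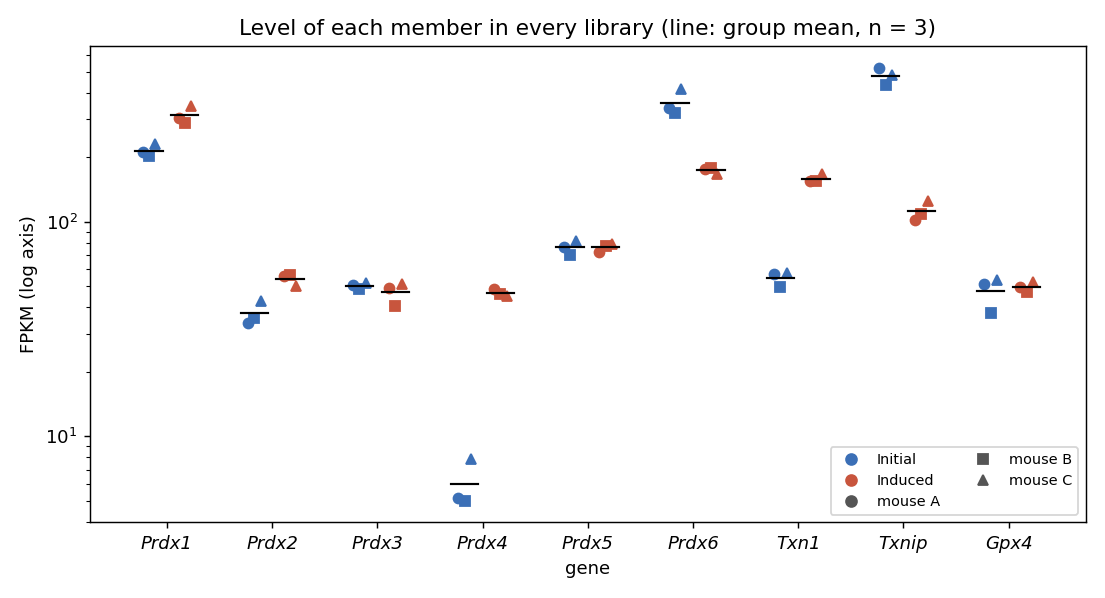
FPKM of each of the 9 members with a row in the 3 Initial and 3 Induced libraries, on a log axis, with 1 point per library, a shape per mouse and a line at the group mean. Txnip and Prdx6 were lower in every Induced library than in any Initial library, Txn1, Prdx1, Prdx2 and Prdx4 were higher, and Prdx3, Prdx5 and Gpx4 overlapped.

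Txn1, the cytosolic thioredoxin, rose in the Induced cells while its inhibitor Txnip fell. Txn1 (ENSMUSG00000028367, chromosome 4, 57943373 to 57956411, minus strand, GRCm38) was at 56.9, 49.9 and 57.5 FPKM in Initial A, B and C and at 155, 154 and 167.0 in Induced A, B and C. Every Induced library lay far above every Initial library, and the 3 Induced libraries were close to each other. The means were 54.7 ± 4.23 and 159 ± 7.12, a 2.90-fold ratio. The log2 difference was 1.52 (SE 0.08, limma adjusted p = 1.25e-06). It was positive within each mouse, at 1.43, 1.61 and 1.52 for A, B and C. Txn1 stood at rank 1653 of the 11265 genes by mean level in Initial and at rank 484 in Induced.

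Txnip (ENSMUSG00000038393, chromosome 3, 96557957 to 96561883, plus strand, GRCm38) was the most abundant member in Initial, at 523, 433 and 482 FPKM in libraries A, B and C. It was at 102.0, 109 and 125 in Induced A, B and C. The groups did not overlap, and the lowest Initial library, B, was still above every Induced library by a wide margin. The means were 479.5 ± 45.3 and 112 ± 11.9, and the log2 difference was -2.09 (SE 0.10, 95% confidence interval -2.32 to -1.85, limma adjusted p = 1.06e-06). Within mice A, B and C the log2 ratios were -2.35, -1.98 and -1.94. Txnip ranked 110 among all genes tested in Initial and 727 in Induced. The gene lies inside the span of the antisense gene Gm15441, and 606 of its 3123 exon bases overlap exons of that gene. No source used here says whether strand was used in counting, so reads of the overlap cannot be told apart. Gm15441 itself was at 1.07 to 1.10 FPKM in Initial and 0.212 to 0.423 in Induced, far below Txnip in all 6 libraries.

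The 250 bases before the Txnip start are shown because they hold the sequence by which glucose is known to act on this gene, the carbohydrate response element (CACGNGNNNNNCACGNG, searched on both strands). The match is in capitals, 85 to 69 bases before the start. The sequence is from RefSeq, build GRCm38.p6, and the window also holds exons of Gm15441.
Txnip promoter, chr3:96557707-96557956, plus strand: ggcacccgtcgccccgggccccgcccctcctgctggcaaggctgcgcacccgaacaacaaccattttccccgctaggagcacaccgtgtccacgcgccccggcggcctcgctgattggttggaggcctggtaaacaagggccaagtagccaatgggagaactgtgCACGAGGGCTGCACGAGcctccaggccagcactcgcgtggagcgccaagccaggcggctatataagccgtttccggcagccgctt
This motif was found in 15 of 32851 promoter windows of the same length, or 0.0457%, and in no other member's window searched. Tested genes with the motif were called in both directions. By limma A430005L14Rik, Irak1bp1, Man2b2, Rbbp4 and Tdrd9 were higher, Fem1b, Nfkb2 and Txnip were lower, and Fnip1 did not pass. The match is a description of the window, and no binding was measured here.

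The ratio of Txn1 to Txnip FPKM was 0.109, 0.115 and 0.119 in Initial A, B and C and 1.52, 1.41 and 1.33 in Induced A, B and C. Txnip messenger RNA exceeded that of Txn1 in every Initial library, and the order was the opposite in every Induced library. The mean ratio was 0.114 ± 0.00524 in Initial and 1.42 ± 0.0931 in Induced. On the log2 scale the difference was 3.63, or 12.4-fold. The exact two-sided permutation test gave p = 0.1, which is the smallest that 3 libraries against 3 can give.

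**Figure D2:**
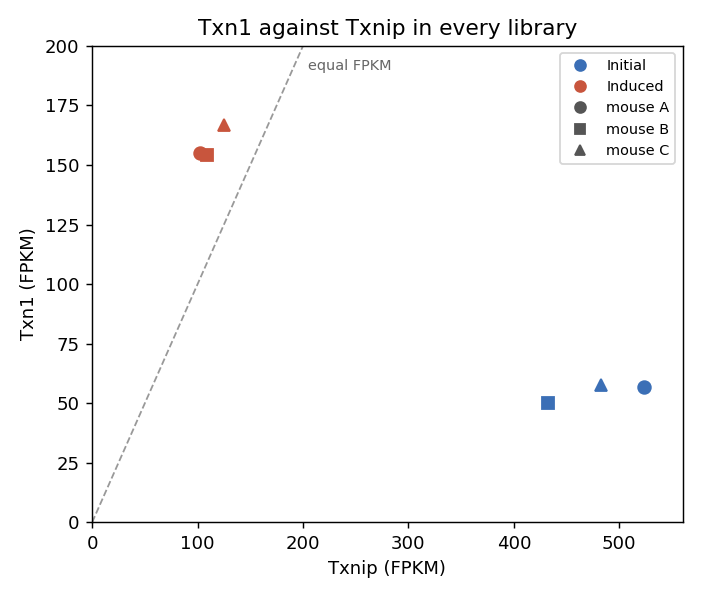
Txn1 FPKM (vertical) against Txnip FPKM (horizontal) in the 6 libraries, 1 point each, with linear axes of different scale and a dashed line of equal FPKM. The 3 Initial libraries lie on the Txnip side of the line (Txn1 to Txnip ratio 0.109 to 0.119) and the 3 Induced libraries on the Txn1 side (1.33 to 1.52).

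Of the typical 2-Cys peroxiredoxins, which are reduced by thioredoxin, the endoplasmic reticulum form Prdx4 rose most, the cytosolic forms Prdx1 and Prdx2 rose less, and the mitochondrial form Prdx3 did not pass the test. Prdx4 (ENSMUSG00000025289, chromosome X, 155323918 to 155340754, minus strand) couples peroxide reduction to disulfide formation in proteins of the secretory pathway. It was at 5.18, 5.02 and 7.88 FPKM in Initial A, B and C and at 48.5, 45.9 and 45.1 in Induced A, B and C. Initial C was the highest Initial library and the Induced libraries were nearly level, with no overlap. The means were 6.03 ± 1.61 and 46.5 ± 1.79, a 7.72-fold ratio. The log2 difference was 2.78 (SE 0.15, 95% confidence interval 2.44 to 3.12, limma adjusted p = 1.88e-06). Within mice it was 3.00, 2.96 and 2.38, and without Initial C the fitted difference was 2.96. By mean level Prdx4 went from rank 7559 of 11265 in Initial to rank 2086 in Induced.

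The window before the RefSeq start of Prdx4 is shown because this member rose most. That start lies inside the span given above, which is from the GENCODE annotation and reaches further upstream. It holds an E-box (CACGTG, the same on both strands), in capitals, at 52 to 47 bases before the start. The sequence is from RefSeq, build GRCm38.p6. The 236 bases shown stop short of the RefSeq start, since the searched window runs on to 155338461.
Prdx4 promoter, chrX:155338475-155338710, minus strand: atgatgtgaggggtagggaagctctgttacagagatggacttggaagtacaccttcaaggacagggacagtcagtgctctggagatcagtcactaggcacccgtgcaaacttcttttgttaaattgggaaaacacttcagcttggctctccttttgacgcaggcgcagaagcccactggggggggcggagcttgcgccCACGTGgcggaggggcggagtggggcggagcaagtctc
An E-box was found in 6.02% of all 32851 windows and, among the members, in that of Prdx4.

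Prdx1 (ENSMUSG00000028691, chromosome 4, 116685544 to 116700822, plus strand), the main cytosolic 2-Cys peroxiredoxin and a known NRF2 target, was at 211, 203 and 230.0 FPKM in Initial A, B and C. It was at 306, 290.1 and 347 in Induced A, B and C. The groups did not overlap, and mouse C was highest in both. The means were 214 ± 14.0 and 314 ± 29.1, with a log2 difference of 0.55 (SE 0.09, limma adjusted p = 0.000691). The log2 ratios within mice were close to each other, at 0.53, 0.52 and 0.59. Prdx1 became the most abundant member in Induced.

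The 195 bases before the annotated Prdx1 exons are shown for their match to the antioxidant response element (TGACNNNGC, both strands), the site through which NRF2 acts. The match, on the opposite strand, is in capitals at 133 to 125 bases before the RefSeq start. That start lies downstream of the GENCODE start given above. The searched window therefore runs on to 116685598, past the end of the printed bases. The sequence is from RefSeq, build GRCm38.p6.
Prdx1 promoter, chr4:116685349-116685543, plus strand: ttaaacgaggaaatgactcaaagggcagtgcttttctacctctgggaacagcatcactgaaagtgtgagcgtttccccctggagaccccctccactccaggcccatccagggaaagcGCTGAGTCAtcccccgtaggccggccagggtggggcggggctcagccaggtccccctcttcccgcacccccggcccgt
This motif is short, and 3338 windows, or 10.2% of all, hold it. Among the members it was also found in 1 of the 3 windows of Txnrd1, 92 to 84 bases before the start. None of the 3 motifs was found in the windows of Prdx2, Prdx3, Prdx5, Txn1 or Gpx4, which says only that these letters are not in those windows.

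Prdx2 (ENSMUSG00000005161, chromosome 8, 84969587 to 84974834, plus strand), cytosolic and best known from red cells, was at 33.9, 35.7 and 42.8 FPKM in Initial A, B and C. In Induced A, B and C it was at 56.1, 56.6 and 50.3. The groups did not overlap, but mouse C had the highest Initial and the lowest Induced value. The means were 37.4 ± 4.71 and 54.3 ± 3.51, with a log2 difference of 0.53 (SE 0.10, limma adjusted p = 0.00159), and 0.71, 0.65 and 0.23 within mice. The sum of 9 red cell markers was 1221 to 1747 FPKM in Initial and 1.17 to 1.64 in Induced. The part of red cells in the Prdx2 values and in the size of the difference was not tested. On the opposite strand, Prdx2 shares 173 of its 3050 exon bases with Junb and 177 with Rnaseh2a. Junb was at 2543 to 2776 FPKM in Initial and 91.0 to 103 in Induced. Rnaseh2a was at 19.0 to 20.1 and 25.3 to 30.5. The part of reads from these 2 genes in the Prdx2 values was not tested.

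Prdx3 (ENSMUSG00000024997, chromosome 19, 60864051 to 60874556, minus strand), the peroxiredoxin of the mitochondrial matrix, was at 50.7, 48.8 and 51.6 FPKM in Initial A, B and C and 49.0, 40.6 and 51.3 in Induced A, B and C. The groups overlapped, with Induced B lowest. The log2 difference was -0.10 (SE 0.09, 95% confidence interval -0.32 to 0.11, limma adjusted p = 0.329). Its mitochondrial reductant Txn2 was at 92.2 ± 6.02 and 91.4 ± 8.37, and the mitochondrial reductase Txnrd2 was at 9.62 ± 0.751 and 8.97 ± 0.546. Neither passed the test, with limma adjusted p = 0.887 and 0.385.

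Prdx5 (ENSMUSG00000024953, chromosome 19, 6906697 to 6910106, minus strand), an atypical 2-Cys form found in mitochondria, peroxisomes and cytosol, was at 76.0, 70.3 and 81.8 FPKM in Initial A, B and C. In Induced A, B and C it was at 72.7, 77.0 and 79.1. The Induced libraries lay inside the Initial range. The log2 difference was 0.01 (SE 0.07, 95% confidence interval -0.17 to 0.18, limma adjusted p = 0.942). It shares 409 of 2139 exon bases with Trmt112 on the opposite strand, which was at a mean of 54.3 and 54.5 FPKM.

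Prdx6 (ENSMUSG00000026701, chromosome 1, 161240112 to 161251219, minus strand) is the 1-Cys form, reduced by glutathione with the help of the transferase Gstp1 in place of thioredoxin, and it also has phospholipase activity. It was at 339, 321 and 418 FPKM in Initial A, B and C and at 177, 177 and 166 in Induced A, B and C. Every Initial library was higher, with Initial C above the others, and the Induced libraries were nearly level. The means were 359 ± 51.5 and 174 ± 6.29, and the log2 difference was -1.04 (SE 0.10, 95% confidence interval -1.27 to -0.80, limma adjusted p = 4.69e-05). Within mice it was -0.93, -0.85 and -1.32. Prdx6 was thus the peroxiredoxin that fell. Its partner Gstp1 rose, from 146 ± 20.1 to 264 ± 15.4, with a log2 difference of 0.85 (limma adjusted p = 0.000183). Gstp1 has near-identical neighbours, between which the authors' counting could split reads. The intronless copy Prdx6b was at most 0.0684 FPKM in Initial and listed at 0 in Induced.

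Gpx4 (ENSMUSG00000075706, chromosome 10, 80047166 to 80056439, plus strand), the selenoenzyme that reduces lipid hydroperoxides in membranes with glutathione, was at 51.5, 37.5 and 53.5 FPKM in Initial A, B and C. In Induced A, B and C it was at 49.8, 47.2 and 52.5. The groups overlapped, and Initial B was the low library. The log2 difference was 0.08 (SE 0.13, 95% confidence interval -0.22 to 0.39, limma adjusted p = 0.585), and without Initial B it was -0.07, also short of a call.

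**Figure D3:**
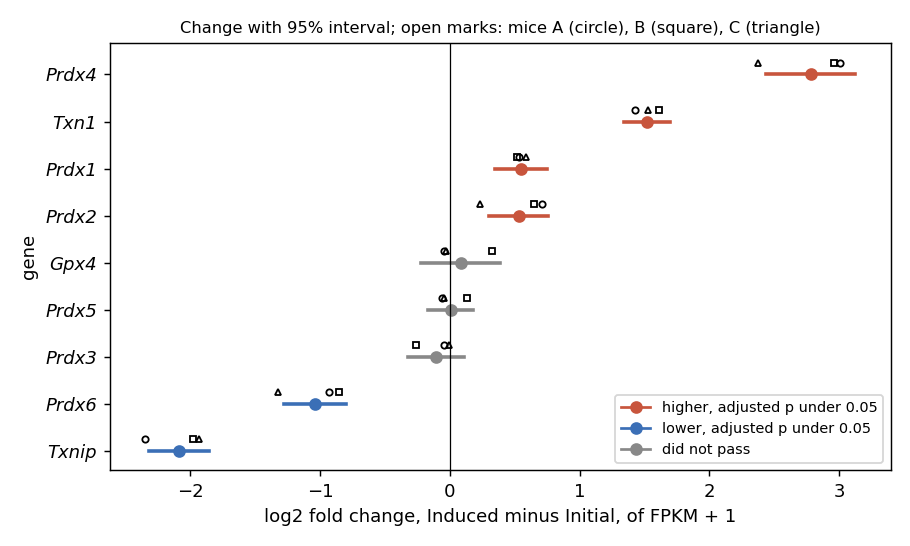
Log2 difference of FPKM + 1, Induced minus Initial, for the 9 members with a row, with the limma estimate, its 95% confidence interval and the log2 ratio within each mouse. Txnip (-2.09) and Prdx6 (-1.04) lie below 0, Prdx4 (2.78), Txn1 (1.52), Prdx1 (0.55) and Prdx2 (0.53) lie above it, and the intervals of Prdx3, Prdx5 and Gpx4 hold 0.

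The peroxiredoxins differed between the groups in their shares, while their sum overlapped. Summed over Prdx1 to Prdx6 it was at 716, 684 and 832 FPKM in Initial A, B and C and 709, 688 and 739 in Induced A, B and C, and the groups overlapped. The means were 744 ± 78.1 and 712 ± 25.5, with p = 0.7 by the exact two-sided permutation test. Prdx6 made up 48.2 ± 1.78% of that sum in Initial and 24.4 ± 1.71% in Induced. Prdx1 made up 28.9 ± 1.11% and 44.1 ± 2.51%, so the leading peroxiredoxin was Prdx6 in every Initial library and Prdx1 in every Induced library. The share of Prdx4 was 0.802 ± 0.126% and 6.54 ± 0.386%, and that of Prdx2 was 5.03 ± 0.261% and 7.65 ± 0.745%. The shares of Prdx3 (6.81 ± 0.527% and 6.59 ± 0.590%) and Prdx5 (10.2 ± 0.398% and 10.7 ± 0.477%) overlapped between the groups.

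**Figure D4:**
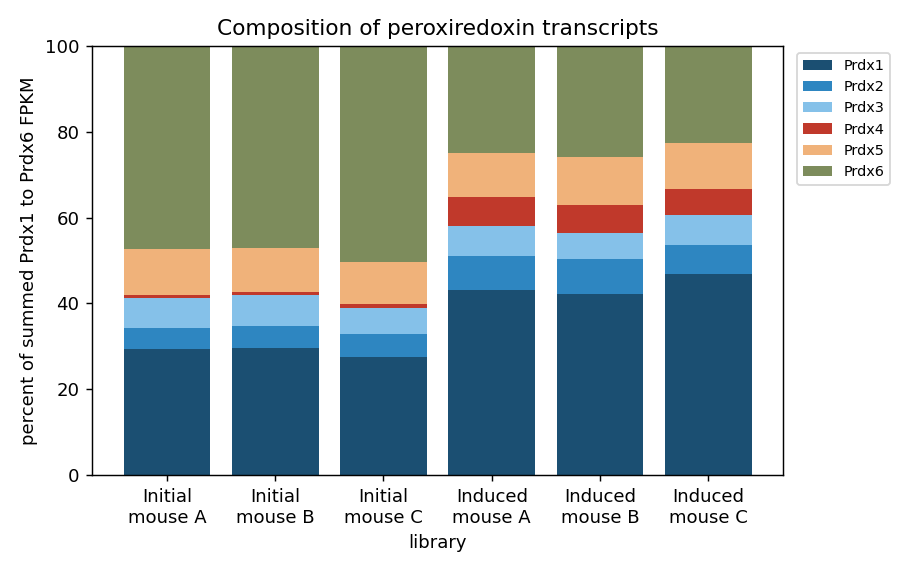
Share of each peroxiredoxin in the summed FPKM of Prdx1 to Prdx6, in percent, as 1 stacked bar per library. Prdx6 takes 47.0 to 50.2% of each Initial bar and 22.5 to 25.8% of each Induced bar, and Prdx1 takes 27.6 to 29.6% and 42.2 to 46.9%.

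By level per length, the order in Initial was Txnip, Prdx6, Prdx1 and Prdx5, each with a range above the next, followed by Txn1, Prdx3, Gpx4 and Prdx2, whose neighbours overlapped, and then Prdx4. In Induced, Prdx1 came first. Prdx6 and Txn1 overlapped, Txnip and Prdx5 followed without overlap, and Prdx2, Gpx4, Prdx3 and Prdx4 overlapped with their neighbours. The mean member levels spanned 79.5-fold in Initial (Txnip over Prdx4) and 6.75-fold in Induced (Prdx1 over Prdx4).

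Genes with the profile most like a member were taken as those with the smallest Euclidean distance over the 6 libraries, in centred log2(FPKM + 1). Nearest to Txnip were Amigo2 (0.106), 5430405H02Rik (0.144) and Foxo1 (0.191). Nearest to Prdx4 were Ska1 (0.176), Lig1 (0.246) and Gsg2 (0.247). With 6 libraries in 2 groups, this likeness is a description and was not tested.

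Around the members, the tested genes of a list of thioredoxin fold, disulfide reductase and sulfiredoxin genes rose or did not pass. Of these 21 genes, limma called 13 higher and 0 lower (0 lower also at an unadjusted p under 0.05), with a median log2 difference of 0.25. Over all genes 70.4% were called, 37.3% higher and 33.1% lower. The counts of this list and of those below are to be read beside these shares, and no list was tested as a set. With no filter on low values 1 gene of the list, Txnrd3, was called lower. The highest rises were in Srxn1, the sulfiredoxin that repairs overoxidised 2-Cys peroxiredoxins, and in the glutaredoxin Glrx. Srxn1 was at 1.74, 1.64 and 1.05 FPKM in Initial A, B and C and at 15.6, 16.8 and 12.5 in Induced A, B and C, with no overlap and a log2 difference of 2.69 (SE 0.15, limma adjusted p = 2.39e-06). Glrx rose from 35.8 ± 4.06 to 204 ± 6.41.

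Among 9 thioredoxin client genes tested, 3 were higher, 1 was lower and 5 did not pass. Ribonucleotide reductase makes deoxynucleotides with electrons from thioredoxin, and its subunits Rrm1 and Rrm2 rose while Rrm2b did not pass (4.25 and 4.10 FPKM in means, limma adjusted p = 0.847). Rrm2 went from 21.7 ± 2.83 to 407 ± 30.2 FPKM and Rrm1 from 19.9 ± 1.14 to 116.0 ± 3.43, beside the higher proliferation markers given above. The methionine sulfoxide reductase Msrb2 fell from 7.18 ± 0.997 to 3.27 ± 0.491. Without Induced C, 2 client genes were called lower.

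The α-arrestin relatives of Txnip and their glucose regulators included 7 lower, 3 higher and 3 not passed of 13 tested, with a median log2 difference of -0.32. Arrdc3, the α-arrestin that sends surface receptors to degradation, fell from 40.9 ± 2.40 to 4.72 ± 1.02 FPKM (log2 difference -2.89, SE 0.13, limma adjusted p = 6.43e-07). Arrdc4, the closest relative of Txnip, fell from 6.15 ± 0.844 to 2.98 ± 0.616 (log2 difference -0.85), and Mlxip, which encodes the glucose-sensing factor MondoA, fell from 33.1 ± 3.84 to 13.9 ± 0.518. Foxo1, a factor of quiescent lymphocytes, fell from 47.7 ± 2.85 to 9.95 ± 0.764. The genes that rose included hexokinase Hk2, from 1.65 to 5.71 FPKM in means, and the glucose transporter Slc2a3, from 25.9 to 46.6. The glucose transporter Slc2a1 did not pass, at 46.9 and 48.3 FPKM in means (limma adjusted p = 0.665). After scaling to the T cell receptor genes, 5 genes of this list were called higher and 6 lower.

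Glutathione genes, on which Prdx6 and Gpx4 draw, were mixed, with 8 higher, 3 lower and 7 not passed of 18. Gsr, the glutathione reductase, rose from 46.5 ± 5.18 to 94.2 ± 6.54 FPKM, and Gstm5 rose from 1.33 ± 0.468 to 32.6 ± 8.94. The Gstm genes are close copies of each other, so their values are uncertain in the same way. Gstm1 fell from 14.7 ± 1.24 to 0.660 ± 0.176, and Mgst1 fell from 9.39 ± 3.40 to 0.643 ± 0.247. Without any 1 Initial library the count of lower genes was 1, since Gstm1 and Mgst1, under 1 FPKM in Induced, then had too few libraries to enter the test. In the NADPH supply, 6 of 12 genes were higher and 1 was lower, with G6pdx, the entry enzyme of the pentose phosphate pathway, rising from 32.2 ± 3.76 to 62.9 ± 11.0 and Mthfd2 from 18.8 to 60.0, while Idh1 fell from 11.1 to 5.85.

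Superoxide dismutases supply the hydrogen peroxide that catalase, like the peroxiredoxins, removes. Of 4 genes tested (Sod1, Sod2, Cat and Ccs, the copper chaperone of Sod1), limma called 0 higher and 1 lower. At an unadjusted p under 0.05, 0 were higher as well. Catalase (Cat) fell from 60.2 ± 2.53 to 47.4 ± 3.20 FPKM (log2 difference -0.34, limma adjusted p = 0.00317). Scaling to the T cell receptor genes gave Cat an adjusted p of 0.244 and turned the counts to 1 higher (Sod1) and 0 lower, and without Induced C, 2 of the 4 were called lower. Of 7 NADPH oxidase genes, 3 were higher, among them Cyba from 290 to 470 and Ncf4 from 46.3 to 101.8 in means, and 2 were lower. Cybb, a phagocyte gene, was among the lower ones (18.2 to 1.07) and fell beside the macrophage markers given above. Without Induced C, 3 oxidase genes were lower.

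In the NRF2 list, which holds Prdx1 partners such as Srxn1, 8 of 21 genes were higher and 9 were lower, so the list did not move one way. Hmox1, the heme oxygenase of red pulp macrophages, fell from 118 ± 35.8 to 4.03 ± 0.540 FPKM beside the macrophage markers given above, and the small Maf factor Maff fell from 9.98 to 0.202 in means. Nfe2l2, which encodes NRF2, had a log2 difference of -0.55 (limma adjusted p = 0.00182) and its inhibitor Keap1 one of 0.85. Of 3 sestrins, 2 were lower and 0 higher by limma (1 higher at an unadjusted p under 0.05). Sesn3 fell from 12.4 to 3.47 FPKM in means. Sesn1 fell from 64.4 to 48.6 (limma adjusted p = 0.015), and its adjusted p was 0.0572 without Initial A and 0.0576 without Initial B. Without Initial A, and after scaling to the T cell receptor genes, 1 sestrin was called higher and 1 lower.

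Gpx4 belongs with the lipid peroxidation genes and the selenoproteins, and genes of both lists were called in both directions. All 16 ferroptosis genes tested were called, 9 higher and 7 lower, where 70.4% of all genes were called. Cisd1 (18.3 to 85.8 FPKM in means) and Tfrc (17.3 to 48.2) were among the higher. The iron exporter Slc40a1 fell from 82.9 ± 24.6 to 0.110 ± 0.0324 and Gch1 from 38.5 to 12.2. Slc40a1 is a gene of iron-recycling macrophages and fell beside their markers. Of 15 other selenoproteins, 9 were higher, led by Selenop (142 ± 12.1 to 437 ± 90.5) and Selenoh (5.48 to 12.7), and 2 were lower. Selenok went from 12.2 to 8.13. Selenow went from 18.1 to 12.4 (limma adjusted p = 0.0419), with adjusted p of 0.132 without Initial A, 0.132 without Initial C, 0.13 without Induced A and 0.071 without Induced B, and the lower count was then 1 in the last 3 of these.

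Among 9 genes that make or insert selenocysteine, which Gpx4 needs, 3 were higher and 2 were lower. Sephs1 rose from 9.41 to 27.8 FPKM in means and Scly from 13.4 to 21.9. Both of the lower ones lost their calls without single libraries. Eefsec went from 37.3 to 30.5 (limma adjusted p = 0.0196), and its adjusted p ran from 0.0636 to 0.0668 without Initial A, Initial B, Induced A or Induced B. Pstk went from 28.5 to 23.6 (limma adjusted p = 0.0244), with 0.0767 without Initial C, 0.0541 without Induced A and 0.0884 without Induced B. The count of lower genes in this list was 1 without any 1 Initial library and 0 without Induced A or Induced B.

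**Figure D5:**
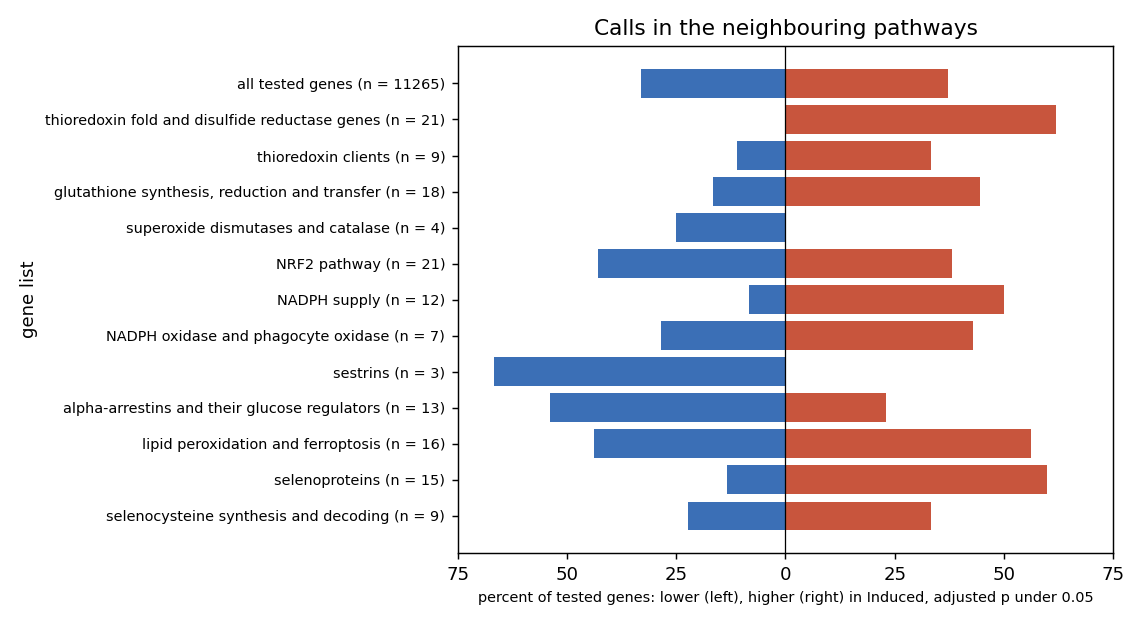
Percent of tested genes called lower in Induced (blue, to the left of 0) and higher (red, to the right) by limma, for all 11265 genes and for each of the 12 lists around the members, with the number tested beside each name. All genes stand at 33.1% and 37.3%. The 21 genes of the thioredoxin fold list, which also holds sulfiredoxin, hold 0 lower and 13 higher. The 13 α-arrestin list genes hold 7 and 3.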

How the data were processed

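Sequencing was on an Illumina HiSeq instrument after VAHTS mRNA-seq v2 preparation, per the labels' protocols. The tools named, per the submitters' processing notes, are CASAVA, HISAT2 2.0.5 and 2 versions of Cuffdiff, 1.3.0 and 2.2.1. The authors deposited FPKM from Cuffdiff, per the labels' protocols, as 1 table per library with gene identifier, symbol, locus and value, per the file headers. The notes name mm9, but the deposited loci lie on GRCm38: of 26669 identifiers found in GENCODE M21, 90.77% lie inside the deposited span. A gene with no row in a library counted as 0, though its estimate may have failed. Depth was estimated from steps between low FPKM values, as the depth that put the largest share of them near whole multiples. At that depth 46.0 to 50.8% lay within 0.15 of a whole multiple, against 30% by chance at a fixed depth. Choosing the depth in this way itself raises the share, so the depths are rough and no count test was run. 

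The 11265 genes that reached 1 FPKM in 3 or more libraries were tested with limma 3.58.1 in R 4.3.3 on log2(FPKM + 1), with trend and robust shrinkage, two-sided and without a block. Sums and ratios used exact permutation tests. Tested on simulated data (10801 genes) for Induced against Initial, the fit recovered 65.3% of 1.5-fold, 82% of 2-fold, 96% of 4-fold and 100% of 8-fold changes, with 8 false calls of 179. The simulation raised 49 or 50 genes at each fold and lowered none. In the data 70.4% of genes were called, in both directions, so these rates may not hold there. The same mouse letters stand in the titles of both groups, which pairs the libraries by animal, and deviations from the group means correlated at 0.0393, 0.0307 and 0.1308 within mice, against -0.1324 to 0.0988 between mice. The alternatives were other pseudocounts, filters and scalings, the mouse as a block, the ordinary moderated test and each library left out.

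The members and lists were chosen with earlier results of these data known. Named from each list were the 2 largest rises and 2 largest falls among called genes with a mean of at least 5 FPKM, and Gstp1, Txn2, Txnrd2, Arrdc4, Mlxip, Nfe2l2 and Keap1 were added for their roles after their values had been seen. Some genes that the rule names are not reported here. Promoter windows are the 250 bases before each RefSeq start (GRCm38.p6), and 9 of 10 members matched, all but Prdx6. Figures were drawn with matplotlib 3.10.9, and tables made with pandas 2.3.3 and scipy 1.17.1 under Python 3.11.15.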

Additional observations from a re-analysis of the deposited data

How the results depend on the processing

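Across all alternatives, 4 members were higher and 2 were lower in Induced, except after scaling each library to its CD3 chain and Trdc levels, where 6 were higher (Prdx5 and Gpx4 added). Without each library in turn the counts stayed at 4 and 2, Txnip ran from -2.17 to -2.02, Prdx6 from -1.11 to -0.92, Prdx4 from 2.68 to 2.96, Txn1 from 1.46 to 1.56, Prdx1 from 0.47 to 0.60 and Prdx2 from 0.46 to 0.63, in log2. With the mouse as a replicate block, 4 members were higher and 2 lower, and no member's call changed. The log2 difference of the Txn1 to Txnip ratio was 3.63 within mice (exact p = 0.25, the smallest that 3 pairs allow), 3.61 with a pseudocount of 1, and 3.59 to 3.68 without each library. Of the members that did not pass, Prdx3 was at 0.12 under the CD3 and Trdc scaling, Prdx5 ran from -0.06 to 0.23, and Gpx4 from -0.07 to 0.30, so their signs were not settled. With no filter 26771 genes were tested, of which 4396 were higher and 4793 lower, and with a filter at 5 FPKM the counts were 3422 and 2753. Of 692 values of 44 other named genes, 20 lost their call and 4, of Txn2 and Txnrd2, changed sign without one. Besides the losses given in the report, Pstk (0.0504) and Selenow (0.0939) lost theirs without a filter on low values, and Cat, Eefsec, Pstk, Selenow and Sesn1 under the CD3 and Trdc scaling, at adjusted p of 0.179 to 0.663. Gstm1, Mgst1, Maff and Slc40a1 could not be fitted without an Initial library, since too few libraries then reached 1 FPKM. With 3 libraries a group, differences the size of that of Prdx3 could not be told from 0, and depth limits Prdx4 most. The cause of these shifts was not tested.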
